A study of Mus musculus with 4 samples.

Results

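The regions described here are 128 stretches of open chromatin at least 2000 bp wide that lie at the ends of protein-coding genes in wild-type (wt) mouse embryonic stem cells. They were chosen by their width in wt: the intervals of both wt peak lists were merged wherever they overlapped by at least 1 bp, and a merged region was kept if it lay on an autosome, was at least 2000 bp wide and came within 1 kb of an annotated start or end of a protein-coding gene. The wt lists merged into 186914 autosomal regions, of which 22377 lay at gene ends, so the broad regions are 0.572% of the open regions at gene ends. The remaining 22249 gene-end regions were narrower than 2000 bp and serve below as a comparison, as do the 47 regions that were equally broad but lay away from gene ends.

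The study profiled open chromatin by ATAC-seq, in which a transposase inserts sequencing adapters into accessible DNA, in embryonic stem cells that are wt or Hox-/-, with 2 libraries of each genotype. By its title the series concerns cells lacking all Hox function, the Hox genes being clustered transcription factor genes that pattern the body axis. The sample titles call the Hox-/- cells BADC without spelling the letters out. Cells of both genotypes were kept in DMEM with serum and LIF, and with the inhibitors CHIR99021 (against GSK-3) and PD0325901 (against MEK). The labels name neither the strain nor whether a line is a single clone, and they do not say whether libraries of a genotype came from separate cultures, so a spread between libraries, and a p-value made from it, may be technical.

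Open chromatin at a mammalian promoter is usually a short stretch from which nucleosomes have been cleared by transcription factors and the transcription machinery. Many promoters lie in CpG islands, GC-rich stretches in which the CG dinucleotide has not been depleted by methylation and mutation, and these are often accessible even in cells that do not express the gene. A broad region in a peak list is a run of neighbouring accessible sites without a called gap, and says nothing by itself about transcription.

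The promoters under the widest of these regions are shown here because their letters display the range of CG content found under broad regions. Each is the RefSeq promoter (assembly GRCm38.p6, 250 bases before the annotated start to 50 after it), written 5′ to 3′ on the gene's own strand, with every CG dinucleotide in capitals. Phf19 (chr2:34913927-34914226, minus strand) encodes a Polycomb-like subunit of the complex that methylates histone H3 at silenced genes, Sema5b (chr16:35541112-35541411, plus strand) an axon guidance semaphorin, and Chst2 (chr9:95407221-95407520, minus strand) a carbohydrate sulfotransferase. LOC108167694 (chr9:124423351-124423650, minus strand) is a gene model without an assigned function, and Kcnk13 (chr12:99964249-99964548, plus strand) encodes a potassium channel. Olfr94 (chr17:37197917-37198216, minus strand), an olfactory receptor gene, was added after its value was seen, as a member with few CG dinucleotides.
Phf19: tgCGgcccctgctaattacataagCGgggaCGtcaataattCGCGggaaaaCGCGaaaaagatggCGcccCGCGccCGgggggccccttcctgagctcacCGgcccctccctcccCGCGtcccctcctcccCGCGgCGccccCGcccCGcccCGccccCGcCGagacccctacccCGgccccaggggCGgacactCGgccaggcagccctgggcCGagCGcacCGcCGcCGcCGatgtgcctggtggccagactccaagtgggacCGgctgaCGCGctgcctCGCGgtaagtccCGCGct
Sema5b: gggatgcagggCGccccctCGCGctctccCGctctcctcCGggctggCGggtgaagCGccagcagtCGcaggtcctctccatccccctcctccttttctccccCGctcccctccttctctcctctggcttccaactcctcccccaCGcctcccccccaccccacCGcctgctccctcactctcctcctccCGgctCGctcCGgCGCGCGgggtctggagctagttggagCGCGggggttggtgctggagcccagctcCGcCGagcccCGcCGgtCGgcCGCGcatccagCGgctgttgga
Chst2: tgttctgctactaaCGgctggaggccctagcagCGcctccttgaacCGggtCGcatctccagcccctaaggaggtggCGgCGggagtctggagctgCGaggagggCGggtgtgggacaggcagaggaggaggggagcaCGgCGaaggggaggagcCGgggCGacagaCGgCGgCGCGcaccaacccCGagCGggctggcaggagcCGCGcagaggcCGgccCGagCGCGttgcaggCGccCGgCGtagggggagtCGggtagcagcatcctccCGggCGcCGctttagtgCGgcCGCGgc
LOC108167694: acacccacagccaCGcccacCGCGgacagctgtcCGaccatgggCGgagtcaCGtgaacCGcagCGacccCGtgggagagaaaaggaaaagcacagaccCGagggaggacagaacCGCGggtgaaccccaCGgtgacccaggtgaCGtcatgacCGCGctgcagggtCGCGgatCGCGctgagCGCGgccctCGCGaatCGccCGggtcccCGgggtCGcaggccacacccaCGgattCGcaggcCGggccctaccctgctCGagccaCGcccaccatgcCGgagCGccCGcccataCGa
Kcnk13: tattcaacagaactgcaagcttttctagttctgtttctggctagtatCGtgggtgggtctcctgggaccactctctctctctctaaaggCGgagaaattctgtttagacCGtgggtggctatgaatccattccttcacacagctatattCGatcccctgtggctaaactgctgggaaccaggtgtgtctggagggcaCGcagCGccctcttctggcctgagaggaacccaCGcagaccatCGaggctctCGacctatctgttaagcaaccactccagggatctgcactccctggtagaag
Olfr94: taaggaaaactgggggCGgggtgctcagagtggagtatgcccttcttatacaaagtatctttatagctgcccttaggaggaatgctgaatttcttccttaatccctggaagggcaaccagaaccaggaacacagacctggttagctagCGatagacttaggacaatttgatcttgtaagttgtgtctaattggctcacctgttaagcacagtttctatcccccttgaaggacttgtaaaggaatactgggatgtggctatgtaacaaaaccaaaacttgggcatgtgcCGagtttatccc

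The first 4 of these promoters are CpG-island-like and the last ones are not. Phf19 had a GC content of 74.3% and 38 CG dinucleotides in 300 bases, an observed-to-expected CG ratio of 0.952. Sema5b had 27 CG dinucleotides (ratio 0.728), Chst2 had 34 (ratio 0.885), and LOC108167694 had 37 (ratio 1.00). Kcnk13 held only 9 (ratio 0.434) at a GC content of 52.7%. Its promoter shown is that of a start inside the gene, which begins outside the region, at chr12:99963149. Olfr94 held 3 (ratio 0.199) at a GC content of 45.0%, and carries a TATA box, a CCAAT box and a GC box, whose letters are given with the motif counts.

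Members were narrow in their range of width, since the limit cuts into the tail of the distribution. Their median width was 2124 bp (quartiles 2046 and 2249 bp, widest 2914 bp), against a median of 698 bp over all gene-end regions. Of the 128, 79 were under 2200 bp and 9 were 2500 bp or wider. They lay on all 19 autosomes, with 3 to 11 on each. A single gene had an end at 120 of them and 2 or more genes at 8, giving 137 genes in all. Just inside the limit lay the regions at Rhog (2002 bp), a small GTPase gene, Galnt16 (2000 bp), a mucin-type glycosyltransferase gene, and Chrm3 (2000 bp), a muscarinic acetylcholine receptor gene. Just outside it lay those at Sowaha (1997 bp), Ccnjl (1996 bp) and Dchs2 with Gm10710 (1993 bp). Galnt16 was covered over 1968 and 2000 bp in wt replicates 1 and 2 and over 1952 and 1961 bp in Hox-/- replicates 1 and 2. Rhog had 1610 and 1993 bp in wt and 1954 and 1671 bp in Hox-/-, and Chrm3 had 1760 and 1862 bp against 1780 and 1462 bp. Sowaha was covered over 1952 and 1993 bp in wt and 1962 and 1864 bp in Hox-/-, and Ccnjl over 1900 and 1501 bp against 1409 and 1775 bp. Dchs2 with Gm10710 had 1769 and 1760 bp in wt against 1449 and 1176 bp in Hox-/-. Both Hox-/- values lay below both wt values at Galnt16 and at Dchs2 with Gm10710, and the genotypes overlapped at the other 4.

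Several facts of the whole series bear on these values. The lists hold 213705 and 216795 lines in wt and 191704 and 200214 in Hox-/-, covering 82.5, 83.2, 72.8 and 76.5 Mb of the autosomes, and read depth is unknown because the lists hold no read counts. For lines of 4.5- to 5.5-fold enrichment, median −log10 p values of 20.8 and 20.2 were listed for the wt libraries but 14.9 for the first Hox-/- replicate and 20.3 for the other, so the first gave weaker evidence at the same fold. Peaks within 1 kb of either end were listed for 34 of the 39 Hox genes by both wt libraries and for 4 by both Hox-/- libraries, as the genotype labels have it. All 8 embryonic stem cell markers examined (Pou5f1, Sox2, Nanog and others) had a peak at a gene end in every library, and for 6 of them it was among the 50000 strongest lines of its list. Fibroblast (feeder) markers had a peak at 4 of 6 genes and a strong one at 1 in every library. Extraembryonic markers had a strong peak at 0 to 1 of 4 genes, and blood markers at none of 3. Neural markers (Tubb3 and Snap25 of neurons and Gfap of astrocytes) had a strong peak at 2 of 3 genes and liver markers at 1 of 2 in every library. Where markers of other cells differ between libraries, their part in the results below was not tested.

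The first question was how far the open chromatin reaches on each side of the gene start. Broad regions reached further into the transcribed side than upstream of it. Of the 128 members, 84 contained an annotated start of the promoter table, and 70 contained exactly 1, the others holding alternative starts or starts of several genes. In these 70 the region extended a median of 778 bp upstream (quartiles 461 and 1006) and 1400 bp downstream (quartiles 1099.8 and 1669). It reached further downstream in 57 of 70 (81.4%, exact 95% binomial interval 70.3 to 89.7), against 4214 of 7708 narrower regions (54.7%), whose medians were 410.5 bp upstream and 455 bp downstream. Pgr, the progesterone receptor gene, was among the most lopsided of the widest members, with 142 bp upstream and 2386 bp downstream. A listed start need not be the outer end of its gene: that of Pgr lies inside the gene, which begins outside the region, at chr9:8898900. Phf19 ran the other way, with 1631 bp upstream and 1282 bp downstream. Sema5b (1106 bp upstream) and Dock1 (1135 bp upstream and 1331 bp downstream), the latter encoding an activator of Rac, lay more evenly around the start.

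**Figure D1:**
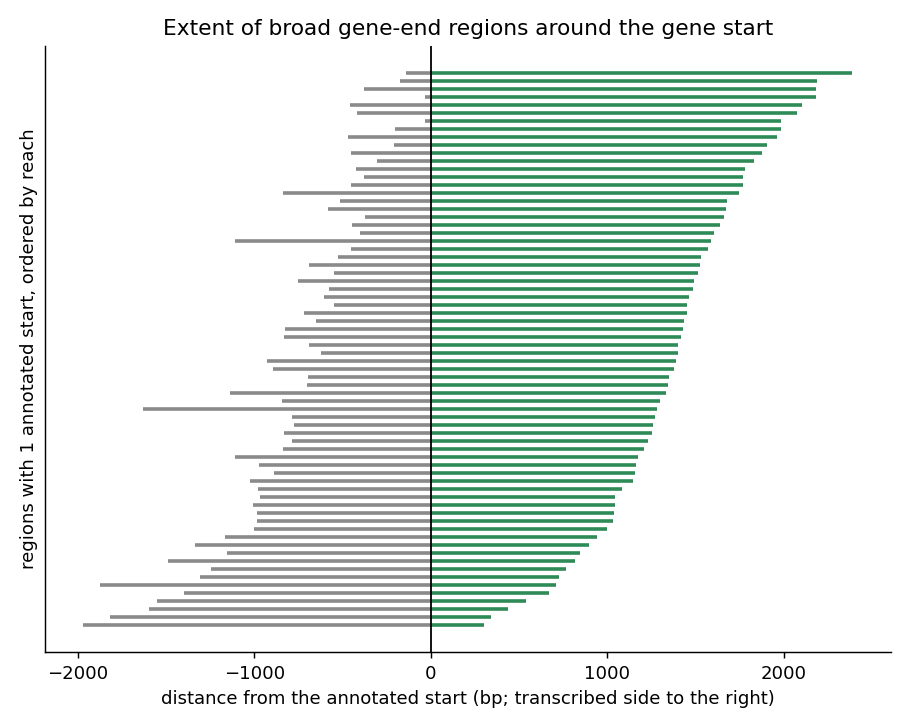
Extent of the 70 broad regions with 1 annotated start, each a horizontal line from its upstream to its downstream edge in bp, with the start at 0 and the transcribed side to the right, ordered by reach. In 57 of the 70 the line is longer on the right.

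Within the edges set by the wt lists, the bases covered in each library had the same lean, which those edges largely fix. Bases covered upstream and downstream of the start had medians of 698 and 1322 bp in wt replicate 1 and of 710 and 1308 bp in wt replicate 2. In Hox-/- they were 668 and 1176 bp in replicate 1 and 671 and 1203 bp in replicate 2. More bases were covered downstream than upstream in 51, 55, 54 and 55 of the 70 regions, in the same order. Coverage was lower in Hox-/- on both sides by similar shares, with a mean of 53.0 kb in wt and 47.6 kb in Hox-/- upstream (a difference of −10.3%) and of 89.8 and 82.3 kb downstream (−8.35%). The difference between the sides was not tested. With edges set by the Hox-/- lists instead, 39 of 49 broad gene-end regions with 1 start (79.6%) reached further downstream, with medians of 807 bp upstream and 1367 bp downstream. Of these, 16 overlapped no member, and 11 of the 16 (68.8%) reached further downstream.

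The lean was graded over all gene-end regions rather than set apart at 2000 bp. The share of regions reaching further downstream was 30.9% of those under 500 bp wide, 51.4% at 500 to 999 bp, 63.8% at 1000 to 1499 bp, 70.7% at 1500 to 1999 bp and 81.4% in the broad regions. These width classes were drawn after the data had been seen. The longest gene at a region was longer in wider classes, with medians of 20.6, 22.1, 30.7, 42.6 and 71.8 kb. Width itself chose the classes, so these are descriptions.

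**Figure D2:**
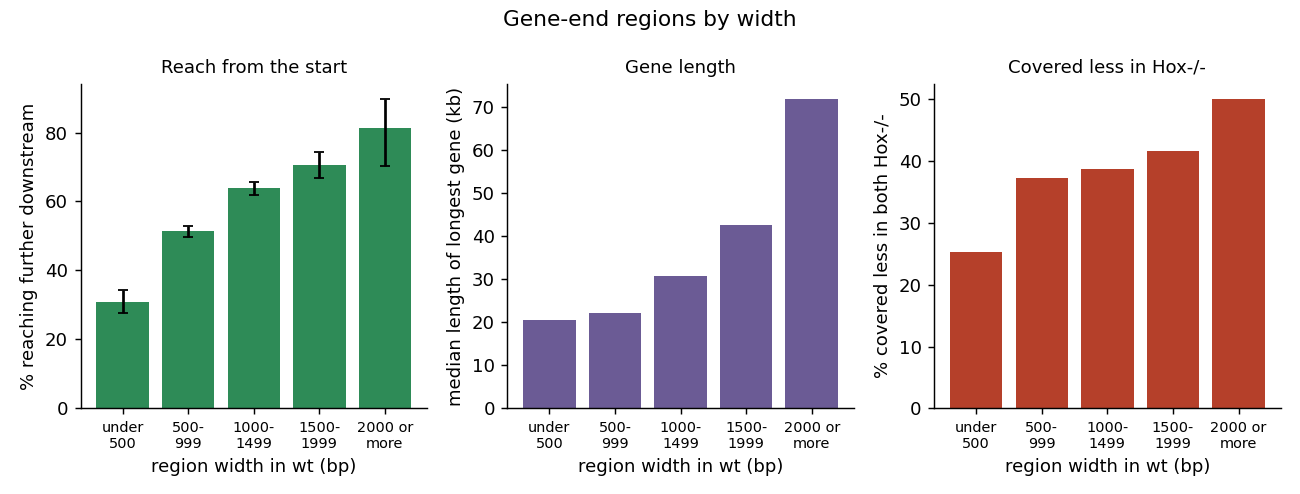
Gene-end regions in 5 classes of wt width in bp: the percentage reaching further downstream of the start (bars, with exact 95% binomial intervals), the median length in kb of the longest gene, and the percentage covered less in both Hox-/- libraries than in both wt libraries. All bars start at 0, and the broad class is highest in each panel, at 81.4%, 71.8 kb and 50.0%.

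Each line of a peak list is 1 summit, so a broad region can be read as a row of summits. Members held a mean of 4.73 and 4.74 summits in wt and 4.41 and 4.39 in Hox-/-, from a low of 2 to a high of 8 in one region. The group means were 4.74 ± 0.00552 in wt and 4.40 ± 0.0110 in Hox-/- (SD, n = 2 each), and the groups did not overlap. Means were also lower in Hox-/- in narrower gene-end regions, at 1.51 and 1.51 in wt against 1.39 and 1.39. In broad regions away from gene ends they were 4.49 and 4.62 in wt against 4.28 and 4.13. The wt lists set the edges within which summits were counted. With only the 150000 strongest lines of each list the members' difference of 0.340 summits became 0.0167. Neighbouring summits lay a median of 394 and 396 bp apart in wt and 409 and 416 bp apart in Hox-/-, against 351 to 363 bp in the narrower gene-end regions. Broad regions away from gene ends were spaced at 422 to 474 bp. Per covered kb, members held 2.31 and 2.35 summits in wt and 2.41 and 2.33 in Hox-/-, so the fewer summits of Hox-/- went with fewer covered bases.

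The members with the most summits differed in how well the libraries matched. Sema5b held 5 and 8 summits in wt and 8 and 6 in Hox-/-, so its groups overlapped. Pard3, a cell polarity gene, held 7 and 6 in wt and 6 and 5 in Hox-/-. Fem1b, which encodes a substrate receptor of a ubiquitin ligase, held 6 and 7 in wt and 5 and 6 in Hox-/-. Chst2 held 7 and 5 in wt and 4 and 3 in Hox-/-, without overlap. Phf19 held 8 summits in wt replicate 2 and 4 in each of the other libraries, so its high count rests on 1 library. In Rpsa, which encodes a ribosomal protein of the small subunit, all libraries held 6.

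Summits were placed unevenly around the start in every library. In the 100 bp before the start there were 27 and 26 summits in wt and 26 and 24 in Hox-/-, summed over the 70 regions with 1 start. In the 100 bp after it there were 13 and 12 in wt and 9 and 12 in Hox-/-. Another crowded stretch lay 500 to 600 bp downstream, with 21, 20, 17 and 24 summits, though in Hox-/- replicate 1 a bin further downstream held more. These bins were chosen after the plot of summit positions had been seen. Of all summits in these regions, 61.3% and 62.0% in wt and 62.2% and 62.0% in Hox-/- lay downstream of the start. The strongest summit of a region lay on either side of the start, within 250 bp of it in 26 to 30 of the 70. Its median position was −44.5 and −54.5 bp in wt and −37.0 and −40.5 bp in Hox-/-, with lower quartiles of −268, −188, −208 and −259.5 bp and upper quartiles of 552, 413, 552 and 534 bp.

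**Figure D3:**
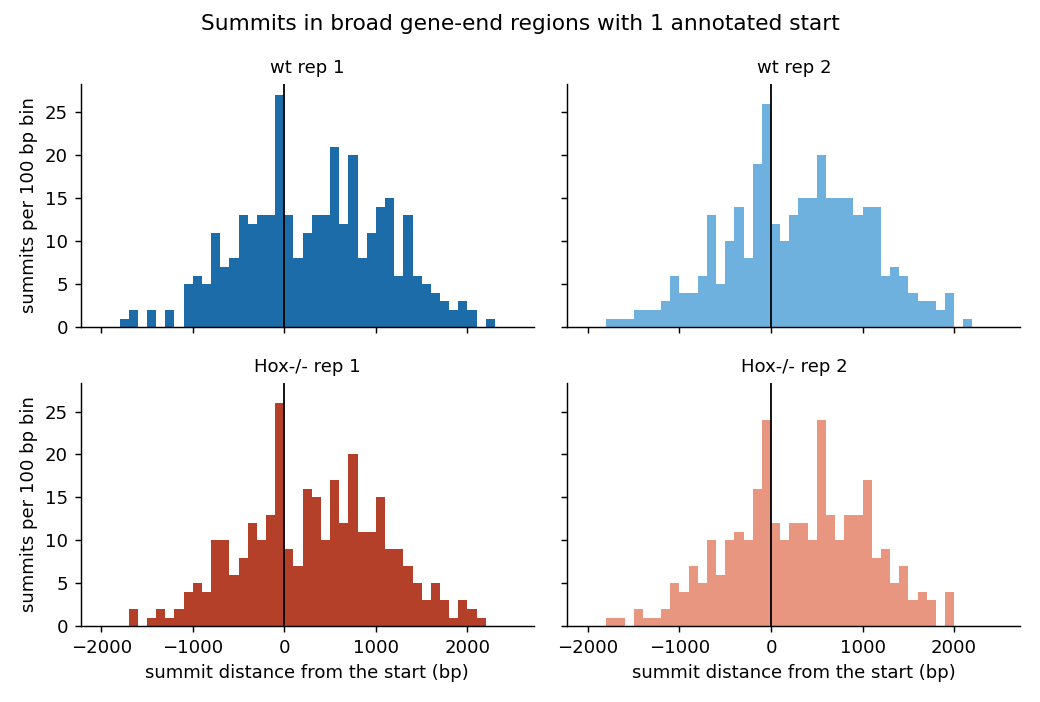
Number of summits per 100 bp bin against distance from the gene start in bp (start at 0, transcribed side to the right), in the 70 broad regions with 1 annotated start, with a panel for each of the 4 libraries. Each panel is highest or joint highest in the bin just before the start (24 to 27 summits) and lower just after it (9 to 13).

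The broad regions were not simply the strongest peaks. The best line of a member was among the 50000 strongest of its list in 77 and 84 of 128 in wt (60.2% and 65.6%) and in 82 and 80 in Hox-/- (64.1% and 62.5%), against 49.2% to 49.7% of narrower gene-end regions. Among broad regions away from gene ends the share was 63.8% to 68.1%. Narrower regions held fewer lines from which to take the best, a mean of 1.39 to 1.51, and this was not adjusted for. The remaining members were broad without a strong line. Rpsa reached a fold of only 2.91 and 3.27 over background in wt and 3.45 and 3.20 in Hox-/-. Phf19, the widest member, reached 3.67 and 3.56 in wt and 4.24 and 4.46 in Hox-/-. Chst2 was of the opposite kind, at 10.8 and 12.1 in wt and 11.6 and 13.3 in Hox-/-. The fold values are the authors' own and rank lines only within a list.

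The sequence under the starts was not used to choose the regions. The 103 promoters whose start lay in a member had a median GC content of 68.0% (quartiles 60.2 and 75.8) and a median of 25 CG dinucleotides per 300 bases (quartiles 16.5 and 38.5). The 10902 promoters starting in narrower regions had 61.7% and 21.0, and all 20084 autosomal promoters of the table had 57.0% and 14.0. By the common limits of a CG ratio of at least 0.6 and a GC content of at least 50%, 77 of the 103 were CpG-rich (74.8%, exact 95% binomial interval 65.2 to 82.8), against 71.4% in narrower regions and 46.5% of all promoters. The share in narrower regions lay within this interval. Promoters in no wt region were CpG-rich in 8.05%.

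Short motifs were searched on both strands of the same 300 bases, and a motif may overlap another. The GC box GGGCGG was found in 72 of the 103 member promoters (69.9%), against 67.6% in narrower regions and 47.0% of all promoters. The CCAAT box was found in 26 (25.2%, against 39.4% and 38.1%) and the TATA box TATAAA in 4 (3.88%, against 6.29% and 12.7%). The ETS motif CCGGAAGT was found in none, against 8.55% and 5.28%. Its share by width class was 3.18%, 9.55%, 9.41% and 4.22% in the classes below 2000 bp, so it was already low at 1500 to 1999 bp. The NRF1 motif GCGCATGCG and the YY1 motif AAGATGGCG were each in 4 (3.88%, against 3.94% and 2.38% for NRF1 and 3.00% and 1.83% for YY1). CACGTG was in 12 (11.7%, against 10.7% and 7.89%), TGACGTCA in 3 (2.91%, against 3.43% and 2.3%) and TCTCGCGA in 2 (1.94%, against 2.26% and 1.36%). A match is a run of letters, not a bound site. Promoters of 1 gene overlap in part, the 103 belonging to 87 genes.

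The genes at the broad regions were long. The 137 genes had a median length of 61.6 kb (quartiles 13.2 and 172), against 21.6 kb for the 15413 genes at narrower regions only and 17.5 kb for all 20661 autosomal protein-coding genes. Among them 52 (38.0%) were 100 kb or longer, against 12.9% and 11.2%. Among the longest, named here after their lengths were seen, were Gpc6 (1055 kb), a cell surface glypican gene, and Astn2 (1024 kb), which encodes a membrane protein of migrating neurons. Others were Mdga2 (763 kb), a synaptic adhesion gene, Grip1 (634 kb), a glutamate receptor scaffold gene, and Cadps2 (578 kb), a gene of vesicle release. Kcnq5 (564 kb), a potassium channel gene, Mecom (558 kb), a zinc finger transcription factor gene, and Pard3 (549 kb) followed, with Ptprk (523 kb), a receptor phosphatase gene, and Dock1 (503 kb). Several of those named act in neurons, but no list of neuronal genes was counted and no test of function was made.

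The members were also counted in gene lists, beside the 0.663% of all autosomal protein-coding genes that lay at members. Of 22 pluripotency genes 1 lay at a member (4.55%), and 20 of the others lay at narrower regions. It was Tdgf1, which encodes a co-receptor of Nodal. Of 40 developmental transcription factor genes 2 did (5.0%), among them Sox17 of the endoderm, with 36 at narrower regions. Of 77 ribosomal protein genes 3 did (3.90%), Rpl23, Rpl3 and Rpsa. None did of 20 immediate early genes, 33 signalling genes, 21 chromatin regulator genes, 39 Hox genes or 415 genes with zinc finger family symbols, of which 379 lay at narrower regions. These counts are of listed genes and do not show that members lack such genes: Phf19 and Wdr5, which act on chromatin, the growth factor gene Fgf2, and the zinc finger genes Zbtb7c, Mecom, Zfpm2 and Zeb1 are at members and on none of these lists. The zinc finger list takes only symbols that begin with Zfp, Zkscan or Zscan and a number. Fgf2, Zfpm2 and Zeb1 are named after their values were seen. Since gene length, width and list are tied through the choice of the regions, these counts are descriptions. No start of the promoter table lay in the members at Tdgf1, Sox17, Rpl23, Rpl3 or Rpsa. The regions at Tdgf1, Rpl3 and Rpsa lay wholly outside these genes, and that at Sox17 lay wholly inside. Gene strand was not read there, so these members are not shown to lie at gene starts.

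Members also held ends of non-coding genes. A long non-coding RNA gene had an end in 20 members (15.6%), close to the 8 of 47 broad regions away from coding gene ends (17.0%) and against 5.64% of narrower gene-end regions. A microRNA gene had an end in 2 members, among them Mir1903 at Nrp1, a semaphorin co-receptor gene, which is 1.56% of members, against 1 of 47 broad regions away from coding gene ends (2.13%) and 0.315% of narrower regions.

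The second question was how much of each region was open in each library. Broad regions stayed largely open in Hox-/- but were covered over fewer bases. Median covered width was 2036 and 2004 bp in wt replicates 1 and 2 and 1862 and 1901 bp in Hox-/- replicates 1 and 2. The full ranges were 1535 to 2524, 1505 to 2720, 961 to 2401 and 1227 to 2524 bp. As a share of the region the medians were 96.3% and 94.7% in wt and 85.9% and 88.4% in Hox-/-, with group means of 95.5 ± 1.08 and 87.2 ± 1.75 (SD, n = 2 each) and a difference of 8.34 percentage points. Both Hox-/- medians lay below both wt medians. No test is given, because the wt lists set the edges of the regions.

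**Figure D4:**
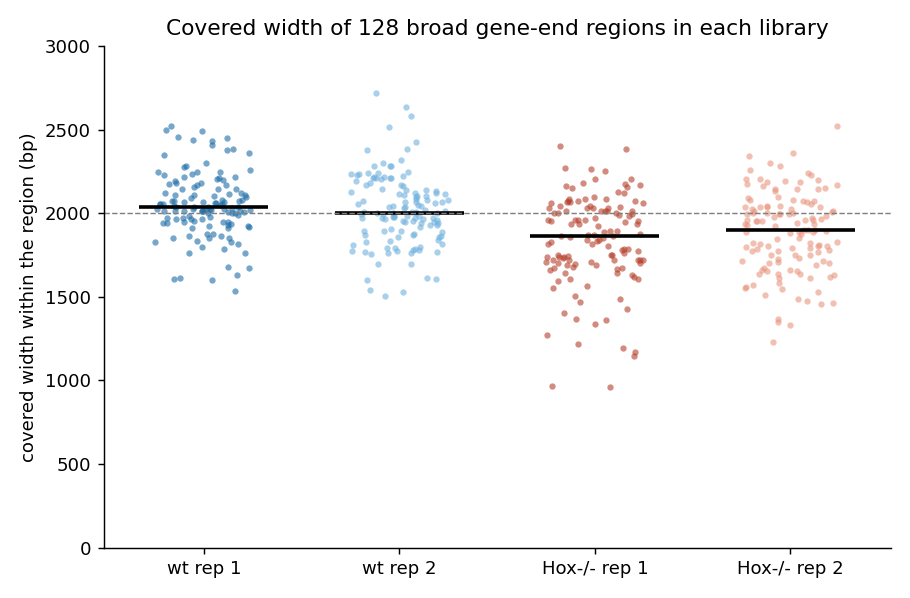
Covered width in bp of each of the 128 broad regions (points) in the 4 libraries, with the median of each library as a black bar and the 2000 bp limit as a dashed line. Medians are 2036 and 2004 bp in wt and 1862 and 1901 bp in Hox-/-, and the lowest points, under 1000 bp, are in Hox-/- replicate 1.

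Every member had a peak in each Hox-/- library. Regions with a peak in neither Hox-/- library were 0 of the 128 members, 0 of the 47 broad regions away from gene ends (0%), 7.77% of narrower gene-end regions and 16.1% of all autosomal wt regions. Covered width was lower in both Hox-/- libraries than in both wt libraries at 64 of 128 members (50.0%). The same held for 31.9% of all autosomal wt regions, 33.8% of narrower gene-end regions and 70.2% of the 47 broad regions away from gene ends. It was higher in both Hox-/- libraries at 1 member (0.781%), against 1.49% of all regions, 1.65% of narrower gene-end regions and 0% of broad regions away from gene ends (0 of 47). At the other 63 members the groups overlapped. Without Hox-/- replicate 1, the library of weaker evidence at equal fold, 79 of the 128 (61.7%) were lower and 9 (7.03%) higher, against 43.0% and 5.48% of all autosomal wt regions. Without Hox-/- replicate 2, 92 (71.9%) were lower and 3 (2.34%) higher, against 47.8% and 4.49%. Leaving out a wt library also changed which regions were chosen: 42 of 48 (87.5%, against 74.6% of all regions) were lower without wt replicate 1 and 64 of 71 (90.1%, against 73.7%) without wt replicate 2. None can be higher there, since the remaining wt library covers its own regions in full. The part of depth in these counts was not tested.

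Within the edges set by the wt lists, coverage of the members lay in more pieces in Hox-/-. The choice by wt width favours unbroken coverage in wt, so the counts that follow are descriptions. Other sets of regions were not counted this way. A single interval held the member's coverage in 91 and 73 members in wt and in 47 and 61 in Hox-/-. Coverage fell into 3 or more intervals in 2 and 9 members in wt and in 16 and 16 in Hox-/-. In full, 19 and 16 members were covered from edge to edge in wt and 1 and 5 in Hox-/-. An interval that was 2000 bp or wider by itself met 71 and 48 members in wt and 25 and 34 in Hox-/-. Of the 128, 37 met no such interval in either wt list and reached the limit only by merging both lists, while 10 met one in all 4 libraries.

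Among the widest members, the values ranged from a large difference to none. Phf19 (chr2:34912694-34915607, 2914 bp) was covered over 1942 and 2720 bp in wt and 1402 and 1351 bp in Hox-/-, a difference in mean covered share of −32.8 percentage points and the largest of all members. The wt libraries differed here, replicate 1 covering 66.6% of the region and replicate 2 93.3%. Sema5b (chr16:35540256-35542949) was covered over 2455 and 2632 bp in wt and 2401 and 2203 bp in Hox-/-. Chst2 (chr9:95405524-95408108) had 2383 and 2147 bp against 1740 and 1982 bp. In Sema5b and Chst2 both Hox-/- values lay below both wt values. The region shared by LOC108167694 and Gm20783 (chr9:124422690-124425272), with 2433 and 2583 bp against 1986 and 2143 bp, also did not overlap.

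Of the 10 widest members, 5 overlapped between groups. Kcnk13 (chr12:99964120-99966680) was covered over 2244 and 1996 bp in wt and 2087 and 2077 bp in Hox-/-. Itpripl2 (chr7:118489874-118492434) had 2490 and 1980 bp against 2150 and 2358 bp, with a mean difference of 0.742 percentage points. Pgr (chr9:8899691-8902219) had 2524 and 2518 bp against 2268 and 2524 bp. In Kcnk13 and Itpripl2 the spread within wt was wider than the gap between genotypes, and in Pgr only Hox-/- replicate 1 was low. Adcy8 (chr15:64920755-64923262), an adenylyl cyclase gene, had 2452 and 1917 bp against 2251 and 1789 bp. Wdr5 (chr2:27514728-27517224), which encodes a core subunit of histone methyltransferase complexes, had 2497 and 2237 bp against 2031 and 2256 bp. In both, replicates of a genotype differed by as much as the genotypes.

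The largest differences without overlap, after Phf19, were at 4 other members. Mecom (chr3:30507211-30509449) was covered over 1950 and 1813 bp in wt and 965 and 1512 bp in Hox-/- (−28.7 percentage points), with 6 and 6 summits against 3 and 5. Zbtb7c (chr18:75818798-75821148), a zinc finger transcription factor gene, had 1974 and 1889 bp against 1172 and 1365 bp (−28.2). Map3k21 (chr8:125909295-125911297), a MAP kinase kinase kinase gene, had 1535 and 1986 bp against 1196 and 1227 bp (−27.4). The region of 4930404N11Rik, Mfsd12 and Fzr1 (chr10:81364983-81367149), of which Fzr1 encodes an activator of the anaphase-promoting complex, had 2011 and 1982 bp against 1220 and 1613 bp (−26.8). In all 4 the lowest value was that of Hox-/- replicate 1.

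The only member covered more in both Hox-/- libraries was at Trim33 (chr3:103278684-103280714), which encodes a ubiquitin ligase acting on the TGF-beta pathway. It was covered over 1676 and 1762 bp in wt and 1818 and 2004 bp in Hox-/-, a difference of 9.45 percentage points, with 3 and 4 summits against 5 and 4. Over all 128 members the mean difference was above 0 in 11, with a median of −6.47 points and quartiles of −12.2 and −1.65. The medians were −5.55 in narrower gene-end regions, −7.90 in broad regions away from gene ends and −9.76 over all regions, so the median loss of covered share was not larger in the members than over all regions.

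The 5 members from the gene lists given here differed little between genotypes. Tdgf1 (chr9:110946407-110948409) was covered over 2001 and 1893 bp in wt and 1817 and 1998 bp in Hox-/-. Sox17 (chr1:4491681-4493912) had 2166 and 2232 bp against 2204 and 2177 bp, a mean difference of −0.381 points. Rpl3 (chr15:80075301-80077319) had 1955 and 2010 bp against 1923 and 1959 bp. Rpl23 with 1700001P01Rik (chr11:97775475-97777549) had 2075 and 2036 bp against 2067 and 2016 bp, and Rpsa (chr9:120132728-120135201) had 2437 and 2375 bp against 2385 and 2344 bp. In all 5 the groups overlapped.

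The members were also split by gene length. Both Hox-/- values lay below both wt values at 32 of the 52 members whose longest gene was 100 kb or more (61.5%, median difference −9.23 points) and at 32 of the 76 others (42.1%, median difference −5.24 points). Among gene-end regions 1000 to 1999 bp wide the shares were 37.1% of 1031 at long genes and 39.7% of 4575 at others. Of the 11 member genes of 500 kb or longer, 10 lay at members covered less in both Hox-/- libraries, the exception being Gpc6. No share was computed for genes of that length at other regions. With edges set by the Hox-/- lists, Mdga2 and Pard3 were still covered less, Ptprk and Grip1 overlapped, and Dock1 was covered more. The others covered less were not chosen by those lists. Both cuts on gene length were made after the data had been seen, and the difference between long and short genes was not tested.

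The third question was how far these numbers follow from choosing the regions in wt. When both Hox-/- lists chose the regions by the same limits, 87 gene-end regions were found, of which 8 (9.20%) were covered less in both Hox-/- libraries and 17 (19.5%) more. Over all autosomal regions of the Hox-/- lists the shares were 6.55% and 12.1%. When all 4 lists were merged, 200 regions were found, with 69 (34.5%) covered less and 11 (5.5%) more, against 24.9% and 7.95% of all regions so merged. The direction of the counts thus turned with the genotype that chose the regions. Of the 128 members, 58 (45.3%) overlapped a region chosen by the Hox-/- lists, and those made up 58 of the 87 (66.7%).

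Individual genes showed the same turn. The member at Dock1 (chr7:134669552-134672018) was covered over 2301 and 2316 bp in wt and 2165 and 2187 bp in Hox-/-, less in both. With edges set by the Hox-/- lists (chr7:134669832-134672129) it was covered over 2048 and 2116 bp in wt and 2276 and 2288 bp in Hox-/-, more in both. Cdkn2c, a cell cycle inhibitor gene, did likewise by a few bp, with 2105 and 2094 bp in wt against 2085 and 2078 bp in Hox-/- within the wt edges, and 2085 and 2084 bp against 2094 and 2105 bp within the Hox-/- edges. These 2 of the 58 shared regions turned over completely, 8 were covered less under both choices and 1, at Trim33, more under both. Of the 58 members that the Hox-/- lists also chose, 17 (29.3%) were covered less in both Hox-/- libraries, with a median difference of −2.22 points. Of the 70 that they did not choose, 47 (67.1%) were, with a median of −10.5 points. Hox-/- width itself made this split, so the gap between its sides is built in and is no result. Dock1 and Cdkn2c are named after their values were seen.

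To compare libraries without this dependence, regions were chosen from each list alone. Broad gene-end regions numbered 71 and 48 in wt and 32 and 42 in Hox-/-, with means of 59.5 ± 16.3 and 37.0 ± 7.07 (SD, n = 2 each). The groups did not overlap, and the difference of 22.5 regions gave p = 0.33 in an exact two-sided permutation test over the 4 libraries, the smallest p that 2 against 2 allows. With a limit of 1500 bp the difference was 176 regions (p = 0.33, exact permutation), and with 2500 bp it was 0.500 (p = 1.00, exact permutation), so the separation was absent at the higher limit. At 2000 bp the wt libraries differed from each other by as much as this difference. No list held a gene-end region of 3000 bp or more.

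Regions chosen in 1 library were then measured in the other 3, which had no part in the choice. Those chosen in wt replicate 1 (71 regions) had a median covered share of 94.6% in wt replicate 2, 90.5% in Hox-/- replicate 1 and 91.6% in Hox-/- replicate 2. Those chosen in wt replicate 2 (48 regions) had 96.3% in wt replicate 1 and 92.5% and 93.8% in Hox-/-. The wt libraries thus covered each other's regions better than Hox-/- did. Those chosen in Hox-/- replicate 1 (32 regions) had 95.4% and 95.1% in wt and 94.6% in Hox-/- replicate 2. Those chosen in Hox-/- replicate 2 (42 regions) had 95.4% and 95.6% in wt and 92.6% in Hox-/- replicate 1. The wt libraries therefore covered the regions of Hox-/- at least as well as the other Hox-/- library did.

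Averaged over both genotypes, the held-out share was 94.5% within a genotype and 93.7% between genotypes, a difference of 0.791 percentage points. Mismatched groupings of the libraries gave −0.264 and −0.527, so the grouping by genotype ranked highest, with p = 0.33 by exact permutation (one-sided), the smallest p available. Without wt replicate 1 the difference was −0.657. With 2 libraries of each genotype, a difference in held-out covered share was not detectable.

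**Figure D5:**
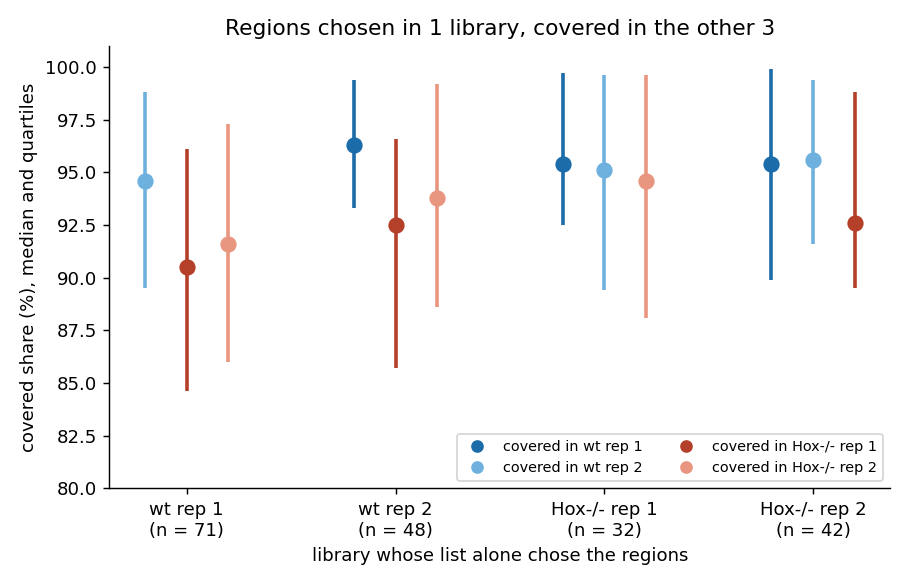
Covered share in percent (points, median; bars, quartiles) of broad gene-end regions chosen from 1 library alone, by choosing library on the horizontal axis, measured in each of the other 3 libraries by colour. The vertical axis starts at 80%. Medians range from 90.5% to 96.3%, and wt libraries lie at or above 94.6% whichever library chose.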

How the data were processed

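ATAC-seq peak lists of 4 libraries, 2 wt and 2 Hox-/-, were used, with libraries grouped by the genotype label and replicate numbers as in the sample titles. Per the submitters' processing notes the build was mm10 and the tools were cutadapt 4.8, Bowtie2 2.5.0, Picard 2.18.2, bedtools 2.30.0, MACS2 2.2.9.1 and deepTools 3.5.4; their options, the handling of duplicates and any transposase shift are not given in the sources used here. Each deposited line gives the interval and summit as positions in bp, a fold ratio over background at the summit, −log10 p and −log10 q values, and a score made from the q-value, all by the authors' peak caller, with 1 list per library. The lowest deposited −log10 q was 1.30 in each list. The lists hold no read counts, so depth is unknown and no interval on it can be given.

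Intervals were merged by overlap of at least 1 bp, and covered width is the number of bases of a region inside the merged intervals of a library. Gene ends came from the RefSeq table of GRCm38.p6, the assembly that mm10 names, and starts, strands and sequences from its promoter table, which holds 20084 autosomal promoters of 16456 of the 20661 protein-coding genes. Sex chromosomes, unplaced contigs, exon annotation and genome sequence were not used here. Lines were ranked by −log10 p within their list, and the first 50000 are called strong. Comparisons over libraries used exact permutation tests, for which 2 against 2 allows no p below 0.33; merging and counting were tested on simulated data. Intervals on shares are exact binomial intervals and cover counting error only.

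Named genes are the 10 widest members, the 5 with most wt summits, the 3 just above and 3 just below the limit, up to 5 each with the largest loss and gain of covered share among members whose groups did not overlap, and members on a gene list. Some genes that this rule takes are not reported here. Sequences are those of the widest members with a listed promoter. The members, lists and tests were chosen with earlier results of these data known. Alternatives changed the width limit, the window, the joining of intervals, the lines admitted and the lists that chose the regions, left out each library, and used the replicate number as a block. Python 3.11.15, numpy 2.4.6, pandas 2.3.3, scipy 1.17.1 and matplotlib 3.10.9 were used.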

Additional observations from a re-analysis of the deposited data

How the results depend on the processing

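Of 104 alternative values, 2 reversed, 32 moved past the limit set for their kind (1.5 times for a count, the spread between replicates for covered share and summits, the binomial interval for the CpG-rich share) and 70 did not. For differences tested over libraries the limit was direction alone, so values among the 70 could lie far apart. The difference in regions of each list alone was 176 at 1500 bp and 0.500 at 2500 bp (p = 1.00, exact permutation), and the held-out difference was 2.28 points at 2500 bp and 1.77 when gaps were joined. The number of regions moved most with the width limit, being 1099 at 1500 bp, 9 at 2500 bp and 0 at 3000 bp. Each list alone also held 0 at 3000 bp, and values within members could not be computed there. It was 71 with wt replicate 1 alone, 48 with wt replicate 2 alone and 200 with all 4 lists, and 87 with the Hox-/- lists. The wt minus Hox-/- difference in median covered share was 11.0 points at 2500 bp, 4.96 with regions from all 4 lists and −0.716, a reversal, with regions from the Hox-/- lists. Members covered less in both Hox-/- libraries numbered 468 at 1500 bp, 5 at 2500 bp and 8 with the Hox-/- lists. Members covered more numbered 18 at 1500 bp, 0 at 2500 bp, 4 when gaps of up to 100 bp were joined, 2 with lines of −log10 q of at least 5, 2 with the 150000 strongest lines, 17 with the Hox-/- lists and 11 with all 4 lists. At 1500 bp, 1 region had no peak in either Hox-/- library. The summit difference was 0.237 at 1500 bp, 0.944 at 2500 bp, 0.326 with a window of 2500 bp, 0.385 with −log10 q of at least 5 and 0.0167 with the 150000 strongest lines. The CpG-rich share was 57.1% at 2500 bp. The cause of these moves was not tested.

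Leaving out each library in turn gave a difference of 11.0 to 34.0 in the regions of each list alone and of 6.88 to 9.58 points in covered share. The held-out difference ran from −0.657, a reversal without wt replicate 1, to 2.08. Members covered less numbered 42 to 92 and members covered more 0 to 9. These counts have different bases, since leaving out a wt library re-chose the regions (48 and 71) and leaving out a Hox-/- library kept 128. As shares, 87.5% and 90.1% were covered less without a wt library and 61.7% and 71.9% without a Hox-/- library. The number of members without a Hox-/- peak, computed only without each Hox-/- library, was 0 in both cases, and the summit difference was 0.332 to 0.365. With the replicate number as a block the values were 22.5 regions, 8.34 points, 0.340 summits, 0.703 points held out, 77 members covered less and 1 covered more. Same-numbered libraries deviated together with a correlation of 0.00204 over 120817 regions, so the numbers are not taken to pair the samples.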

Other observations

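The regions that the Hox-/- lists chose by the same limits included 29 that no wt member overlapped. The widest of the 87 lay at Rpsa (chr9:120132756-120135619, 2864 bp), covered over 2673 and 2547 bp in wt and 2803 and 2716 bp in Hox-/-, more in both. With the edges of the wt lists the same locus overlapped between groups. The next was at 4930426D05Rik (chr18:21651475-21654076, 2602 bp), covered over 1205 and 1505 bp in wt and 1716 and 2435 bp in Hox-/-, and not among the wt-chosen regions. Both are named after their values were seen.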
